A study of Homo sapiens with 2 samples.

Results

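The genes described here encode cullins, F-box proteins and Kelch-like proteins, the scaffolds and the substrate receptors of the cullin-RING family of ubiquitin ligases. Members were all genes of the deposited expression table whose symbol begins with CUL and a digit, with FBX or with KLHL, hyphenated read-through names left out. The rule found 79 of the 10987 genes in the table, namely 8 cullins, 53 F-box genes (7 FBXW, 15 FBXL and 31 FBXO) and 18 KLHL genes. RefSeq lists 108 protein-coding symbols with these beginnings, of which 78 had a row. The other 30 were not analysed here, and FBXO18 is an older symbol of FBH1.

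RNA sequencing covered 2 libraries of THP1 cells, 1 from cells given bort (bortezomib, an inhibitor of the proteasome) for 24 h and 1 from untreated cells. THP1 is a human monocytic leukaemia line, and the labels name no genotype, clone or dose. The library kit is TruSeq in the labels and a stranded KAPA kit for poly-A RNA in the study's methods, and whether strand was used in the estimates is not given in the sources used here. Values were taken as FPKM, fragments per kilobase of transcript after scaling for library size. The deposited table is titled as raw counts, but its header names FPKM and its values are not whole numbers. The depth of the libraries is unknown.

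The cell line label was checked against marker genes. Of 18 erythroid markers 16 were in the table, and their summed level was 4170 FPKM in the untreated and 3623 FPKM in the bort library. The most abundant of them was the fetal globin gene HBG1, at 1487 and 1536 FPKM, while SLC4A1 and EPB42 were not analysed here. The erythroid regulators KLF1, GATA1 and NFE2 differed more than the globin genes that carry the sum. KLF1 was at 147 FPKM in the untreated and 17.4 FPKM in the bort library, a log2 difference of -3.01. GATA1 was at 161 and 48.7 FPKM, a difference of -1.71, and NFE2 at 62.7 and 19.7 FPKM, a difference of -1.62. The erythroid regulators did not all move together, as TAL1 was higher in the bort library, with a difference of 0.93. RHAG, another marker of the erythroid list, was also higher there, with a difference of 0.71. Of 16 monocytic and myeloid markers 6 were in the table, with a summed level of 24.8 FPKM in the untreated and 64.4 FPKM in the bort library. LYZ was the most abundant of these, at 7.61 and 28.7 FPKM, and CD14, CSF1R and MPO were not analysed here. High erythroid and low monocytic transcripts do not match the labelled line, so "untreated" and "bort" name the libraries by their labels. The sums of both lists differed between the libraries, and their part in the results below was not tested. In bulk RNA, fewer cells of a type and less RNA per cell cannot be told apart.

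A cullin is an elongated scaffold. Its far end holds a small RING protein that brings in the ubiquitin-conjugating enzyme, and its near end holds an adaptor and an exchangeable receptor that binds the substrate. F-box proteins are the receptors of CUL1, which they reach through SKP1, and BTB proteins with Kelch repeats are receptors of CUL3. Attachment of NEDD8 to the cullin switches the ligase on, the COP9 signalosome removes it, and most substrates are then degraded by the proteasome.

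With a single library per condition there was no replicate error to set a difference against, so each comparison below is of libraries and not of conditions. Differences are given on the log2(FPKM + 1) scale as bort minus untreated, which understates the change of genes at low FPKM. On that scale 9 of the 79 members (11.4%) were higher by 2-fold or more in the bort library, beside 8.08% of all genes in the table. Lower by 2-fold or more were 3 members (3.80%), beside 10.2% of all genes. At 1.5-fold, 22 members (27.8%) were higher and 9 (11.4%) lower, beside 20.8% and 21.6% of all genes. The background moved with the scaling of the libraries. With totals taken without the 20 most abundant genes, 10.2% of all genes were higher and 8.56% lower by 2-fold, and 10 members were higher and 2 lower. The median difference of the members was 0.15, and that of all genes 0.0049. The spreads were of like size, with quartiles of -0.29 and 0.63 for the members and of -0.50 and 0.49 for all genes.

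The members' summed level hardly moved between the libraries, 463 FPKM in the untreated and 489 FPKM in the bort library, 0.221% of all FPKM in each. Their median level was 2.91 FPKM in the untreated and 3.86 FPKM in the bort library. Levels ran from 0.0518 FPKM (FBXO36) to 40.2 FPKM (FBXW5) in the untreated library, and from 0.231 FPKM (FBXL17) to 44.1 FPKM (CUL1) in the bort library. No member was listed at 0, and 62 of the 79 were at 1 FPKM or more in both libraries. Exons of 24 members overlap an exon of another protein-coding gene in GENCODE 29, and their values are uncertain to that extent, among them FBXW9, FBXL5, FBXO22 and KLHL18 besides those said to overlap where they are described. The members were also split at their median mean level of 3.57 FPKM, a split made after the values were seen. The 39 less abundant members held 4 higher and 1 lower by 2-fold, and the 40 others held 5 higher and 2 lower. Over all genes at any level 8.08% were higher and 10.2% lower. Shares of all genes at the levels of each group were not computed, so the groups cannot be compared by these counts.

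**Figure D1:**
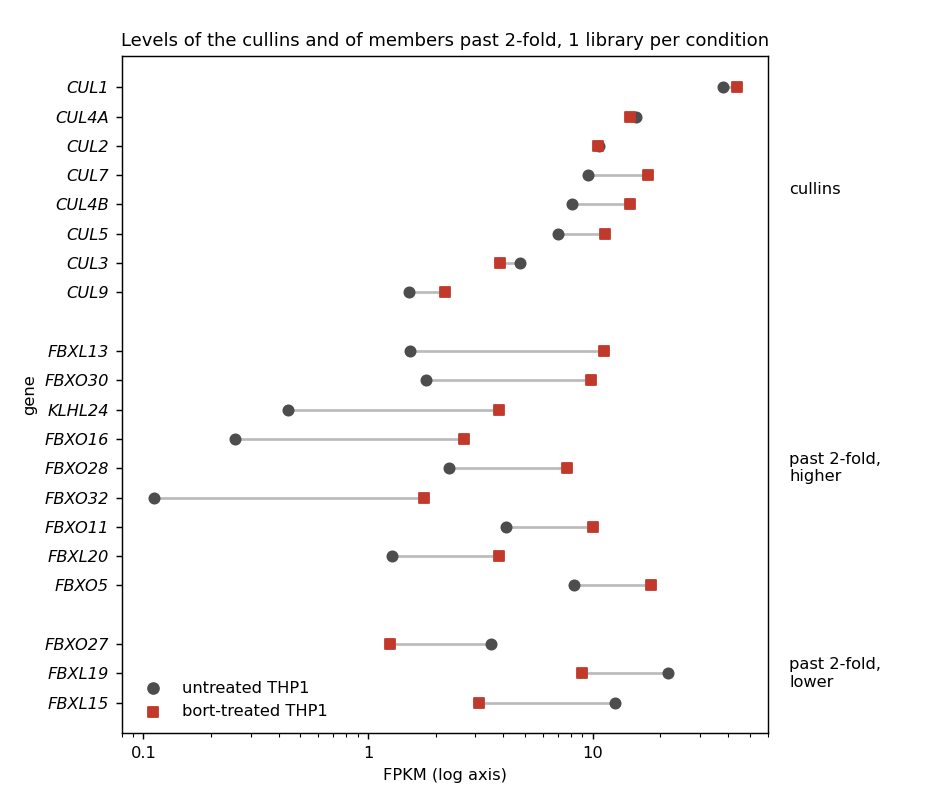
Levels of the 8 cullins, the 9 members higher and the 3 members lower by 2-fold or more, in FPKM on a log axis, with a circle for the untreated and a square for the bort library and 1 library per condition. The circle and the square of each cullin lie closer together than those of FBXO32, at 0.112 and 1.77 FPKM.

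Among the cullins CUL1, the scaffold of the SCF ligases (listed as ENSG00000055130.15_2), was at 37.9 FPKM in the untreated and 44.1 FPKM in the bort library. Its difference was 0.21, and -0.055 with the trend on GC content removed. It was the most abundant cullin in both libraries, more than 2-fold above the next. CUL4A and CUL4B are closely related scaffolds that carry DDB1. CUL4A was at 15.6 and 14.6 FPKM, a difference of -0.09 that turned to 0.017 and 0.012 with the totals without the 20 most abundant genes and with upper quartile scaling. CUL4B was at 8.07 and 14.7 FPKM, a difference of 0.79. With the GC trend removed these differences were -0.18 for CUL4A and 0.35 for CUL4B. The CUL4A locus overlaps PCID2 on the other strand, so its value is uncertain.

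CUL2 and CUL5 carry receptors through elongins. CUL2 was at 10.7 and 10.5 FPKM, a difference of -0.02, which was 0.083 and 0.078 under those same scalings and -0.53 with the GC trend removed. CUL5 was at 7.0 and 11.4 FPKM, a difference of 0.63, or 0.11 with the trend removed. CUL3, the scaffold of the Kelch-like receptors, was at 4.76 FPKM in the untreated and 3.86 FPKM in the bort library, a difference of -0.24, or -0.77 with the trend removed. CUL7 and CUL9 are the large atypical cullins. CUL7 was at 9.57 and 17.6 FPKM, a difference of 0.81 that became 1.17 with the GC trend removed, and it overlaps KLC4 on the other strand. CUL9 was at 1.52 and 2.20 FPKM, a difference of 0.35, or 0.69 with the trend removed. FBXW8, the F-box partner of CUL7 and a gene chosen after its values were seen, was at 1.7 and 0.625 FPKM, a difference of -0.73.

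No cullin passed 2-fold in either direction under the main setting. Together the 8 cullins summed to 95.1 FPKM in the untreated and 119 FPKM in the bort library, and 5 had a difference above 0. Their median difference was 0.28, and 0.027 with the GC trend removed.

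Among the receptors, the F-box genes spread furthest. The largest difference was that of FBXL13 (ENSG00000161040.16_3, chromosome 7), an F-box protein with leucine-rich repeats that is also a subunit of the dynein regulatory complex of cilia. It was at 1.53 FPKM in the untreated and 11.3 FPKM in the bort library, a difference of 2.28. By level it moved from rank 8872 to rank 3416 among the 10987 genes. FBXL13 overlaps LRRC17 on the other strand, so its value is uncertain without strand, and LRRC17 was not analysed here.

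FBXO30 and FBXO32, receptors known for their induction in wasting muscle, were both higher. FBXO30 (ENSG00000118496.4_2, chromosome 6) was at 1.80 FPKM in the untreated and 9.84 FPKM in the bort library, a difference of 1.95, or 1.31 with the GC trend removed. FBXO32, also called atrogin-1, was at 0.112 and 1.77 FPKM, a difference of 1.32. As a plain ratio of FPKM this was 15.8, the largest ratio of the 79 members, from a level near the bottom of the table. FBXO40, the other gene of the muscle atrophy list, was not analysed here.

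KLHL24 (ENSG00000114796.15_2, chromosome 3) was the 1 Kelch-like member past 2-fold. It directs keratin 14 to degradation in skin. Its level was 0.439 FPKM in the untreated and 3.82 FPKM in the bort library, a difference of 1.74. Because KLHL24 was below 1 FPKM in 1 library, it did not pass a filter of 1 FPKM in both, and neither did FBXO16 and FBXO32. In the untreated library these genes were also under 0.501 FPKM, which every gene of the table reached in 1 library. They have a row only through their bort values, so a rise was given in advance.

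The promoters of FBXL13, FBXO30, KLHL24 and FBXL19 are shown as those of the 3 highest differences and, among members with a window at hand, the lowest on the log2(FPKM + 1) scale. The order depends on that scale, and by plain ratio of FPKM FBXO32 (15.8), FBXO36 (10.9) and FBXO16 (10.4) were highest. FBXO36 was at 0.0518 FPKM in the untreated and 0.564 FPKM in the bort library. Like FBXO32 and FBXO16, it was under 0.501 FPKM in the untreated library, a level that every gene of the table reached in 1 library. Such genes are in the table only because their bort value was higher, so a rise follows from their presence there. Each window covers 250 bases before to 50 bases after the start of the gene in RefSeq, build GRCh38.p14, 5′ to 3′ on the strand of the gene. FBXL13 is at chr7:103074747-103075046 on the minus strand, FBXO30 at chr6:145814746-145815045 on the minus strand, KLHL24 at chr3:183635373-183635672 on the plus strand and FBXL19 at chr16:30922601-30922900 on the plus strand. Capitals mark matches, on either strand, to the GC box GGGCGG and, in FBXO30, to the antioxidant response element TGACNNNGC, and no marked matches of these motifs overlap.
FBXL13: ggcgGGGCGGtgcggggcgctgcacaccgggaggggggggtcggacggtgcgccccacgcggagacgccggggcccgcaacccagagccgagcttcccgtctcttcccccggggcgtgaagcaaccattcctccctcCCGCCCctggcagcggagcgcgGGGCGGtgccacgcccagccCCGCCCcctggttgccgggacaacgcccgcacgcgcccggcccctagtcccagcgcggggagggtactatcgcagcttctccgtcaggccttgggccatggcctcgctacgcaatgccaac
FBXO30: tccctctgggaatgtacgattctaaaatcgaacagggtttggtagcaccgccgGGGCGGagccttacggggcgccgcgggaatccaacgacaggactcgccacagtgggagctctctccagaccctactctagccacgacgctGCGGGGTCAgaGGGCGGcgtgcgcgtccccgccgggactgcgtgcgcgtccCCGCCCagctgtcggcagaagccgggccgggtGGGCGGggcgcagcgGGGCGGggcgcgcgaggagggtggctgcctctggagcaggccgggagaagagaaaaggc
KLHL24: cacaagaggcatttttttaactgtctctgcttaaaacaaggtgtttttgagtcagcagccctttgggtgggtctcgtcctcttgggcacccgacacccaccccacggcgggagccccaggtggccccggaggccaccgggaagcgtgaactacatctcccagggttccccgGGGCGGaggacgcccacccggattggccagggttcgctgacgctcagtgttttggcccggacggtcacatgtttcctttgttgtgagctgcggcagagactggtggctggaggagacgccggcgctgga
FBXL19: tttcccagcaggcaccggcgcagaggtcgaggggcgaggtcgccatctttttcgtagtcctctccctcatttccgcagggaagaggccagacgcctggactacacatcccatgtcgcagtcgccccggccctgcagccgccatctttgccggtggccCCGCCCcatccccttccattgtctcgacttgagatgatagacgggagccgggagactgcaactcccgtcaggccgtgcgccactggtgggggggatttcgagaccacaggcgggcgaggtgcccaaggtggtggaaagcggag

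Windows were at hand for 64 of the 79 members, FBXL15, FBXO16 and FBXO32 not among them. Both strands were searched for 5 motifs. The GC box GGGCGG was in 48 of the 64 windows (75%) and in 44.6% of all 27305 windows. The members' windows were richer in G and C, with a median of 68.3% beside 58.3% for all windows. The antioxidant response element TGACNNNGC was in 12 windows (18.8%) beside 13.6% of all. It was in 2 of the 7 windows of members higher by 2-fold or more, FBXO30 and FBXO11, and in 0 of the 2 of lower members. The others were of members within 2-fold that went both ways, such as KLHL15 with a difference of 0.80 and FBXW8 with one of -0.73. An NF-kB site, GGG and TTTCC set 2 bases apart, was in 1 window (1.56%), that of FBXO18, beside 1.92% of all. Neither the C/EBP-ATF response element TGATGNAA (3.67% of all windows) nor a heat shock element, GAA, TTC and GAA each set 2 bases apart (0.487% of all windows), was in any of the 64. A match describes letters in these windows and nothing further.

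Further F-box members were higher by 2-fold or more. FBXO16 was at 0.257 FPKM in the untreated and 2.68 FPKM in the bort library, a difference of 1.55. It shares exon sequence with ZNF395 on the same strand, which was at 4.43 and 3.22 FPKM, so the division of fragments between them is uncertain. FBXO28, a receptor that binds MYC, was at 2.29 and 7.72 FPKM, a difference of 1.40. FBXO11, the receptor of the germinal centre repressor BCL6, was at 4.10 and 9.99 FPKM, a difference of 1.11 that was 0.54 with the GC trend removed. It overlaps MSH6 on the other strand, and MSH6 was at 6.23 and 6.00 FPKM. FBXL20, known from the turnover of a synaptic protein, was at 1.28 and 3.83 FPKM, a difference of 1.08. FBXO33, at 1.29 and 3.52 FPKM, had a difference of 0.98 and is named after its values were seen. It was past 2-fold under other settings, at 1.07 with the totals without the 20 most abundant genes, 1.06 with upper quartile scaling, 1.35 with the GC trend removed and 1.17 or more with the smaller pseudocounts or none.

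Lower by 2-fold or more were FBXL15, FBXL19 and FBXO27. FBXL15, which controls the ligase SMURF1 in BMP signalling, was at 12.6 FPKM in the untreated and 3.11 FPKM in the bort library, a difference of -1.73. It overlaps PSD on the other strand and is uncertain to that extent. FBXL19, which binds unmethylated CpG-rich DNA, was at 21.6 and 8.93 FPKM, a difference of -1.19, or -0.52 with the GC trend removed. FBXO27, a receptor for glycoproteins, was at 3.52 and 1.26 FPKM. Its difference of -1.0 sat at the threshold, and it was -0.94 with the totals without the 20 most abundant genes and -0.69 with the GC trend removed.

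**Figure D2:**
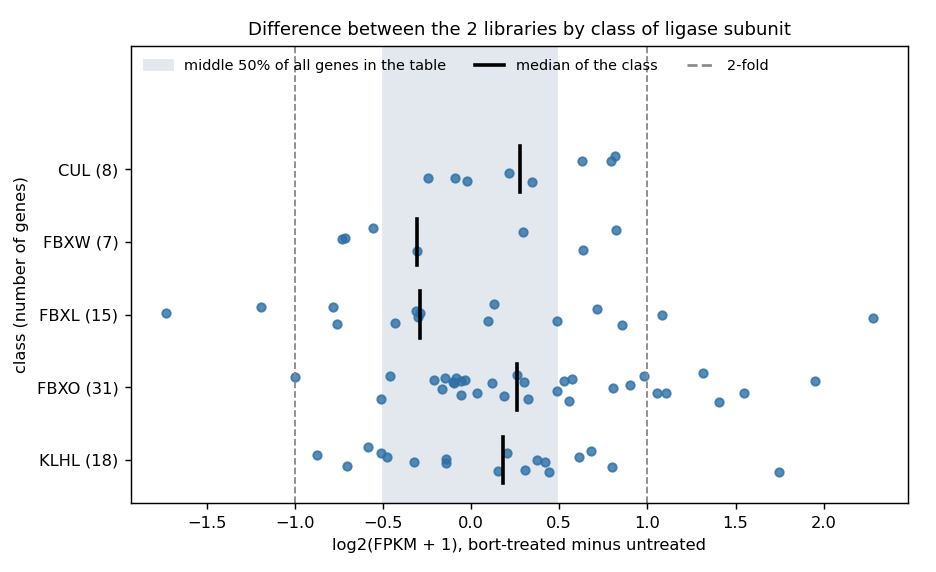
Difference in log2(FPKM + 1), bort minus untreated, for each of the 79 members by class, with a bar at the median of the class, dashed lines at 2-fold and a band over the middle 50% of all genes. The CUL points end at 0.81, the FBXL points run from -1.73 to 2.28, and the FBXW and FBXL medians of -0.31 and -0.29 become 0.13 and 0.21 with the GC trend removed.

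By class, 6 of the 31 FBXO genes were higher and 1 was lower by 2-fold or more, beside 8.08% and 10.2% of all genes, with a median difference of 0.26, which was 0.074 over those at 1 FPKM or more in both libraries. Their summed level was 137 FPKM in the untreated and 173 FPKM in the bort library. The 15 FBXL genes held 2 higher and 2 lower, and their median was -0.29, which turned to 0.21 with the GC trend removed. The 7 FBXW genes held none past 2-fold and had a median of -0.31, which turned to 0.13 under that setting. It was -0.57 with a pseudocount of 0.1 FPKM and -0.13 over those that reached 1 FPKM in both libraries. The 18 KLHL genes had a median of 0.18, or -0.010 with the trend removed. Under the other scalings these medians kept their sign.

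The most abundant F-box genes of the untreated library were FBXW5, FBXL19, FBXW9, FBXL15 and FBXO18, and each was less abundant in the bort library. This ranking used the untreated value, which is 1 side of the difference. FBXW5 was at 40.2 FPKM in the untreated and 27.0 FPKM in the bort library, a difference of -0.56 that turned to 0.13 with the GC trend removed. FBXW9 was at 13.1 and 7.58 FPKM, a difference of -0.72, or -0.17 with the trend removed. FBXO18, a DNA helicase that acts at stalled replication forks, was at 12.6 and 8.86 FPKM, a difference of -0.46.

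Of 8 F-box receptors listed for the cell cycle 7 were in the table, 6 had a difference above 0, and the median was 0.48. Among all 10987 genes 5526 were above 0. The list holds members alone, and SKP2 and CCNF, F-box genes of the cell cycle under other symbols that are added here after their values were seen, had differences of -1.0 and -0.61. FBXO5 (also called EMI1), an inhibitor of the anaphase-promoting complex, was at 8.25 FPKM in the untreated and 18.2 FPKM in the bort library, the only 1 of them past 2-fold. Its difference was 1.05, and 0.53 with the GC trend removed. FBXW7, the receptor of cyclin E, MYC and NOTCH, was at 0.828 and 2.23 FPKM, a difference of 0.82, or 0.55 with the trend removed. FBXW11, a receptor of beta-catenin and the NF-kB inhibitors, was at 4.29 and 7.21 FPKM, a difference of 0.63, or 0.45 with it removed. FBXO4 was the 1 gene below 0, at 2.91 and 2.66 FPKM, a difference of -0.097, or -0.43 with it removed.

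Receptors with other known substrates were mixed. The 5 glycoprotein-binding receptors had a median of -0.15 and, apart from FBXO27, none passed 2-fold. With the GC trend removed that median was 0.21. FBXL5, which marks the iron regulatory protein IRP2 for degradation when iron is plentiful, was at 2.49 and 2.73 FPKM, a difference of 0.098 that turned to -0.33 with the GC trend removed. FBXL4, which restrains mitophagy, was at 0.984 and 2.26 FPKM, and FBXO7, a partner of the mitophagy ligase Parkin, at 8.39 and 10.6 FPKM. With the GC trend removed FBXL4 went from 0.72 to 0.27 and FBXO7 from 0.30 to 0.24. FBXO38, a receptor of PD-1, was at 3.52 and 6.91 FPKM, a difference of 0.81, or 0.44 with the trend removed. FBXO22, a receptor of the haem-sensing repressor BACH1, was at 3.64 and 3.74 FPKM, a difference of 0.03 that turned to -0.23 with the GC trend removed.

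The most abundant Kelch-like genes of the untreated library went both ways. KLHL17, an actin-binding receptor known from neurons, was at 19.2 FPKM in the untreated and 10.1 FPKM in the bort library, a difference of -0.87, or -0.30 with the GC trend removed. KLHL12, which acts on the COPII coat of transport vesicles, was at 17.7 and 12.4 FPKM, a difference of -0.48, or -0.64 with it removed. KLHL21, a receptor that acts on Aurora B in mitosis, was at 14.2 and 18.7 FPKM, a difference of 0.38, or 0.86 with it removed. KLHL18, also of the mitosis list, was at 11.3 and 7.22 FPKM, a difference of -0.58, or -0.41 with it removed. KLHL23 was at 6.90 and 8.77 FPKM, a difference of 0.31 that turned to -0.057 with the GC trend removed. It shares exon sequence with PHOSPHO2 on the same strand, at 3.73 and 2.47 FPKM, so its value is uncertain.

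Of the 6 Kelch-like genes listed for mitosis 4 were in the table, 2 above and 2 below 0, and KLHL9 and KLHL13 were not analysed here. KLHL15, a receptor of a PP2A subunit, was at 2.16 and 4.49 FPKM, a difference of 0.80, or 0.25 with the GC trend removed. KLHL20, known for the turnover of a RHOA activator, was at 3.09 and 3.72 FPKM, a difference of 0.21, or 0.0031 with it removed. KLHL2, which controls WNK kinases, was at 1.41 and 2.86 FPKM, a difference of 0.68, or 0.32 with it removed. KLHL4, KLHL6 and KLHL14, listed for blood cells, were not analysed here.

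The members' differences followed the GC content of their transcripts. Over the 79 members, Pearson's r was -0.53 and Spearman's rho -0.52, a description across genes that share both libraries. The same values over the 10907 genes with a GC content were -0.45 and -0.47. The 9 members that were higher had a GC content of 34.8% to 50.7%, and the 3 that were lower one of 57.4% to 65.7%. Of the 32 members in the GC-poorest of 3 equal groups of genes, 4 were higher (12.5%) and 0 lower, beside 14.1% and 1.54% of all genes there. The middle group held 21 members, 5 of them higher (23.8%) and 0 lower, beside 6.85% and 6.33% of all genes. Among the 26 members in the richest group 0 were higher and 3 lower (11.5%), beside 3.38% and 22.5% of all genes. With the GC trend removed 9 members were higher, 7 of them shared with the 9 above, and 1 was lower, FBXL15. Of all genes 7.12% were then higher and 6.41% lower. FBXL13 was then at 1.86, KLHL24 at 1.65, FBXO16 at 1.38, FBXO32 at 1.36, FBXO28 at 1.22, FBXL20 at 1.01 and FBXL15 at -1.27. The part of GC content in these differences was not tested further.

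The other genes of the cullin-RING ligases were taken from 8 lists. Of 95 listed genes 89 were in the table, 9 of them (10.1%) higher and 2 (2.25%) lower by 2-fold or more. The median difference of the 89 genes was 0.18, or 0.057 with the GC trend removed. The shares of all genes were 8.08% and 10.2%, so the higher share lies near the background. None of the 6 core and adaptor genes passed 2-fold. RBX1, the RING protein of most cullins, was at 13.3 FPKM in the untreated and 19.1 FPKM in the bort library, a difference of 0.49, and the elongin gene ELOB was at 121 and 63.1 FPKM, a difference of -0.92.

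Genes that attach and remove NEDD8 held 3 of the higher ones. DCUN1D1 and DCUN1D3, which help transfer NEDD8 to cullins, were the 2 of 10 genes of the NEDD8 pathway that were higher. DCUN1D1 was at 2.63 and 6.65 FPKM, and DCUN1D3 at 0.707 and 2.81 FPKM. NEDD8 itself was at 16.5 and 11.6 FPKM, a difference of -0.47. Of the 10 COP9 and related genes in the table COPS2 alone was past 2-fold, at 7.30 and 18.9 FPKM, a difference of 1.26, while COPS9 was at 21.2 and 12.7 FPKM. CAND1 and CAND2, which exchange receptors on cullins, were at 8.05 and 9.96 FPKM and at 3.17 and 2.39 FPKM. Among the 9 conjugating enzymes and their partners UBE2D1 was higher, at 1.58 and 4.26 FPKM, and ARIH2 was at 18.0 and 11.6 FPKM.

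Receptors under other symbols held the rest. SKP2, the F-box receptor of the inhibitor p27, was lower, at 12 FPKM in the untreated and 5.47 FPKM in the bort library, a difference of -1.0 that sat at the threshold. BTRC, the paralogue of FBXW11, was at 1.80 and 4.59 FPKM, a difference of 0.99. Of 12 Kelch and BTB genes ENC1 was higher, at 6.58 and 16.0 FPKM, and so was ABTB1, at 0.149 and 1.37 FPKM. In the untreated library ABTB1 was under the 0.501 FPKM that every gene reached in 1 library, so it has a row only through its bort value. KEAP1, the receptor of the antioxidant regulator NRF2, was at 29.7 and 17.5 FPKM, a difference of -0.73. CRBN, the receptor that thalidomide and its analogues bind, was higher, at 3.50 and 10.5 FPKM, a difference of 1.35. SOCS1, an inhibitor of JAK kinases, was at 9.76 and 29 FPKM, a difference of 1.48, and SOCS4 at 2.10 and 5.7 FPKM, a difference of 1.11. KLHDC4 was lower, at 11.1 and 4.88 FPKM, a difference of -1.04. Removal of the GC trend moved several of these genes across 2-fold. UBE2D1 was then at 0.33, SOCS4 at 0.50, KLHDC4 at -0.68, COPS2 at 0.69, DCUN1D1 at 0.72 and CRBN at 0.85, whereas DCUN1D3 at 0.98 and SKP2 at -0.998 were barely short of it. Past 2-fold under that setting, and named after their values were seen, were TSPAN17 (1.12), SOCS7 (1.06), COPS7B (1.06) and SOCS3 (1.01). With the trend removed SOCS1 had a difference of 2.23, with ABTB1 at 1.54, ELOB at -0.51, COPS9 at -0.38, RBX1 at 0.27 and KEAP1 at -0.25, while CAND1 turned from 0.28 to -0.24 and CAND2 from -0.30 to 0.12. SKP2 and KLHDC4 were also short of 2-fold with upper quartile scaling.

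**Figure D3:**
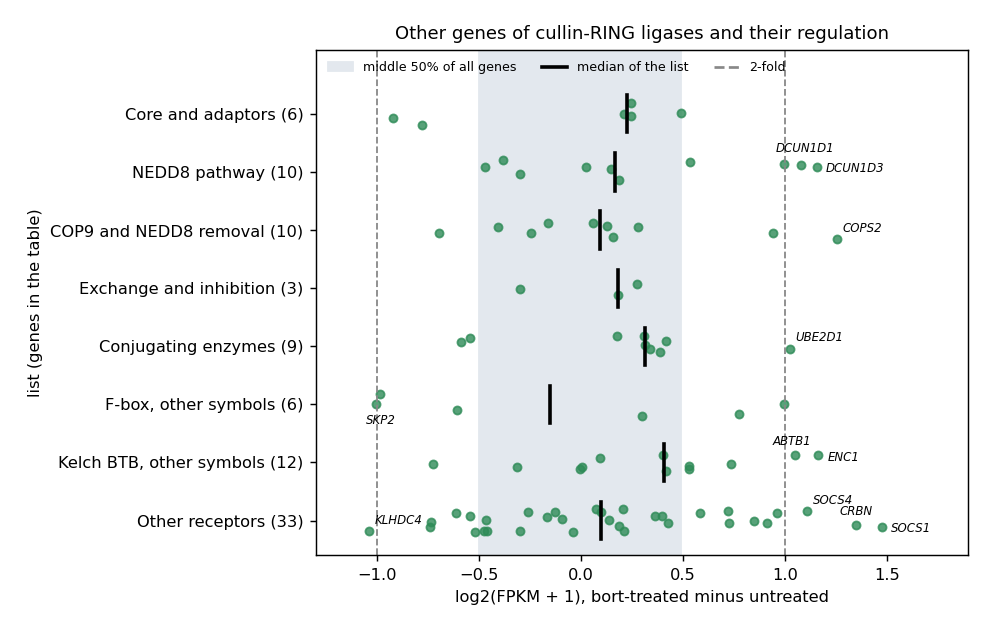
Difference in log2(FPKM + 1), bort minus untreated, for the 89 other ligase genes by list, with a bar at the median of each list, dashed lines at 2-fold and a band over the middle 50% of all genes. The 9 higher and 2 lower genes are named, SOCS1 furthest right at 1.48 and KLHDC4 furthest left at -1.04.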

How the data were processed

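The authors mapped trimmed reads with HISAT2, estimated abundances with StringTie and deposited FPKM values per gene, and GRCh37 is named in the submitters' processing notes. The annotation is not given in the sources used here. Each gene reached at least 0.501 FPKM in 1 library. No counts were used, and depth is unknown, so no counting interval is given. Differences were computed from log2(FPKM + 1) and called at 2-fold, with no test. The members and lists were chosen with earlier results of these data known. Named genes were all cullins, members past 2-fold, the 5 F-box and 5 KLHL genes most abundant in the untreated library, members of role lists and, of each list of other ligase genes, those past 2-fold and the ends of its range. The values of 1 member are not reported here. GC content, as the median over all transcripts of a gene, and overlaps came from GENCODE 29 by gene identifier (10907 genes). Alternatives were pseudocounts of 0.5 FPKM, 0.1 FPKM and none, a minimum of 1 FPKM in each library, 3 scalings, removal of the GC trend by lowess (span 0.3) and thresholds of 1.5-fold and 4-fold. The calculations were checked on planted 4-fold differences, a planted GC trend and a planted scaling. Genes at low FPKM were left out and the planted differences held no noise, so this was a check of the code alone. Python 3.11.15, numpy 2.4.6, pandas 2.3.3, statsmodels 0.14.6 and matplotlib 3.10.9 were used.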

Additional observations from a re-analysis of the deposited data

How the results depend on the processing

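The count of members past 2-fold depended most on the threshold and the pseudocount. At 1.5-fold 22 members were higher and 9 lower (20.8% and 21.6% of all genes). At 4-fold 1 was higher and 0 lower, and no share of all genes is given for that threshold. A stricter threshold lowers these counts by construction. With a pseudocount of 0.1 FPKM 19 were higher and 6 lower (14.3% and 15.1% of all genes), and with none 20 and 8 (15.1% and 15.6%). Removal of the GC trend left 1 lower member, and the cause was not tested. The members' median difference stayed between 0.12 and 0.24 under every setting run. Leaving out the 24 members that overlap another gene, a choice made after seeing the data, gave 6 higher and 2 lower of 55. The share of all genes without overlaps was not computed, so these counts have no background beside them. Of the 12 members and 11 other ligase genes past 2-fold, 11 of the 23 were still past it with the GC trend removed, 23 after scaling by the median of ratios, 20 by the upper quartile and 20 by the totals without the 20 most abundant genes. Smaller pseudocounts and the filter cannot bring a value below the threshold, so they say nothing of stability. Scaling by the median of ratios divided the bort values by 1.005. It hardly moved any value, so its count of 23 says little of stability either. None of the 23 changed direction under these settings. The 67 members short of 2-fold had 522 values under all of these settings, 36 of them past 2-fold and 31 of the other sign. No paired analysis was possible because there was 1 library per condition, and no library could be left out.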
